A study of Mus musculus with 227 samples.

Results

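The Sox genes encode transcription factors that share the HMG box, a domain that binds and bends DNA. The 6 members followed here, Sox9, Sox5, Sox6, Sox4, Sox11 and Sox8, are 6 of 24388 genes in an expression table of single mouse skeletal cells, and were taken by gene symbol. The cells were isolated from BL6 mice on postnatal day 3, from the long bones, and sorted into 4 populations that carry no transgene or treatment: 92 6C3+, 72 THY+, 26 CSP and 37 mSSC cells. The study describes them together as stem, progenitor and stromal cells of the skeleton. All were sorted as negative for CD45 and Ter-119 and positive for AlphaV, and a Tie2- gate is named for every population but 6C3+. The 6C3+ cells were in addition Thy-, 6C3+ and CD105+, the THY+ cells Thy+, 6C3- and CD105+, and the CSP cells Thy-, 6C3- and CD105+. The mSSC cells were Thy-, 6C3-, CD105- and CD200+. No animal, litter or culture is named for a cell, so each population counted as 1 sample: no test was possible, and intervals on shares of cells, exact at 95%, cover counting error between cells only.

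Sox9 is the transcription factor without which cartilage does not form in mouse. It binds as a dimer at enhancers of cartilage matrix genes, among them Col2a1, which encodes the chain of type II collagen, the main fibrillar collagen of cartilage. Sox5 and Sox6, the SoxD pair, lack an activation domain of their own and act beside SOX9 on many of the same enhancers. Sox4 and Sox11, the SoxC genes, are active in many embryonic mesenchymal and neural progenitors, and Sox8 belongs with Sox9 to the SoxE genes.

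On the mm10 build with GENCODE gene models, Sox9 spans chr11:112782224-112787760 on the plus strand. Sox5 lies at chr6:143828425-144781977 and Sox6 at chr7:115470872-116038796, both on the minus strand. Sox4 lies at chr13:28948919-28953713, Sox11 at chr12:27334264-27342574 and Sox8 at chr17:25565892-25570686, also on the minus strand. All 6 are protein-coding. Exons of the antisense transcripts Sox5os1 and 2810468N07Rik overlap those of Sox5 and Sox8, and the long noncoding RNA Gm26735 overlaps Sox4. The library kits do not mark strand, so reads lying wholly within a shared exon stretch cannot be assigned to the Sox gene or its partner. How far the exons overlap was not measured, so the part of such reads in the levels is unknown.

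The start regions of Sox6, Sox5, Sox11 and Sox4 are shown because, over all populations pooled, the first 3 were detected in a larger share of cells with Sox9 than without, with intervals apart, and Sox4 was not. Each runs from 250 bases before to 50 after a RefSeq start on GRCm38.p6, 5′ to 3′ on the gene's strand. The Sox5 window and the second Sox6 window lie well inside the gene spans given above, at internal starts. They are not the regions before the outermost start of either gene. Capitals mark AACAAT or AACAAAG, letters that SOX proteins are known to bind, on either strand (ATTGTT and CTTTGTT on the other). The pair share their first 5 letters and cannot both match at one position.
Sox6, minus strand, chr7:116038695-116038994: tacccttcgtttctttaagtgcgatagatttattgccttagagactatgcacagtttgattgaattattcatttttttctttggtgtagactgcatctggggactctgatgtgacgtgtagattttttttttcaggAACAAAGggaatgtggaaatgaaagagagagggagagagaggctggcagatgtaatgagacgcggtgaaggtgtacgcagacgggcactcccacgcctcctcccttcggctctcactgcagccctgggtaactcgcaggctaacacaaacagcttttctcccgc
Sox6, minus strand, chr7:115824661-115824960: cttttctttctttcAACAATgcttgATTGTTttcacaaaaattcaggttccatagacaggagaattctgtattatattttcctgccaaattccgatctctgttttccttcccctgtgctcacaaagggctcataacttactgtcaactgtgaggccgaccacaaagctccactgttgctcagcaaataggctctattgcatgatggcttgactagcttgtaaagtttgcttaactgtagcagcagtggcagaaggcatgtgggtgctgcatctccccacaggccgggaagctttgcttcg
Sox5, minus strand, chr6:143947057-143947356: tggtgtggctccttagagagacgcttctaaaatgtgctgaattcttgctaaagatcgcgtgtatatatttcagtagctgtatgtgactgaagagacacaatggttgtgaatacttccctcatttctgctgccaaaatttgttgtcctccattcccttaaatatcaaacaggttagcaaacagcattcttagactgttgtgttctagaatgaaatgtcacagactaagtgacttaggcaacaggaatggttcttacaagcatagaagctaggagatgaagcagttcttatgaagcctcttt
Sox11, minus strand, chr12:27342669-27342968: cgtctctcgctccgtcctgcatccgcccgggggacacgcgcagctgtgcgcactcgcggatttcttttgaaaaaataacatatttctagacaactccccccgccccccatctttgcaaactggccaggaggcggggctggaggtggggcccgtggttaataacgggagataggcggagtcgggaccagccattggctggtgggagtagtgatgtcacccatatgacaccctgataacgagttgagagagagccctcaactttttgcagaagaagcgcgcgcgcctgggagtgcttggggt
Sox4, minus strand, chr13:28953650-28953949: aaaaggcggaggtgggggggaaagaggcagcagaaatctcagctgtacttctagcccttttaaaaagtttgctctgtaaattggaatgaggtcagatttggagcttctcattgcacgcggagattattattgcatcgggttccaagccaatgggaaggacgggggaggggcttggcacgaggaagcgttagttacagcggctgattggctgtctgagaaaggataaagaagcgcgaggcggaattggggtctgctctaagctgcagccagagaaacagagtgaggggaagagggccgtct

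Of the 6 genes, 5 were matched to 10 such windows, and Sox9 was not matched. Sox6 held the letters in 4 of its 6 windows, and the Sox6 windows printed above are both among those 4. None of the single windows of Sox5, Sox4, Sox11 and Sox8 held them, and that of Sox5 is at an internal start. Among all 32851 windows of the table, 15.7% held at least 1 of the motifs, 10.7% AACAAT and 5.85% AACAAAG. Of 17 windows of 14 SOX9 target genes, 1 held a motif, in Papss2, an enzyme of sulfate donor synthesis. A match is a run of letters and not a binding site.

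Levels are the authors' FPKM values, which count sequenced fragments relative to transcript length and to the size of the library; reads per cell are unknown. A gene counted as detected at FPKM of at least 1, and all results are over the cells with at least 1000 detected genes unless stated: 34 6C3+, 43 THY+, 11 CSP and 37 mSSC cells. These cells had median gene numbers of 2639, 2835, 3033 and 2534 in that order. The spike-in RNA took a median of 18.9% of FPKM in 6C3+ cells and 20.8% in THY+ cells, against 0.000945% in CSP cells and 0.00117% in mSSC cells. By their index names CSP and mSSC cells shared 1 plate, while 6C3+ and THY+ cells each had their own, and for comparisons across plates the plate cannot be told apart from the population. The antigen labels alone define the populations, and their marker content was mixed: of 15 chondrocyte genes a median of 9 was detected in 6C3+, 5 in THY+, 14 in CSP and 14 in mSSC cells. Of 11 pericyte and smooth muscle genes the median was 1, 2, 1 and 1 in that order, and the highest cells held 6, 11, 1 and 10. Blood cell markers were near 0, with Ptprc (CD45) detected in no cell. Of the housekeeping genes, Actb was detected in every cell, but Gapdh was missed in 13.6% of cells and Hprt in 50.4%, so a value of 0 for a Sox gene does not show that its RNA was lacking.

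Sox9 was the most widely detected member, in 98 cells. It was found in 30 of 34 6C3+ cells (88.2%, interval 72.5 to 96.7) and in 24 of 43 THY+ cells (55.8%, interval 39.9 to 70.9). In CSP cells it was found in 10 of 11 (90.9%, interval 58.7 to 99.8), and in mSSC cells in 34 of 37 (91.9%, interval 78.1 to 98.3). The order of shares was thus mSSC, CSP, 6C3+ and THY+, and the THY+ interval lay below those of 6C3+ and mSSC but overlapped that of CSP. Without the THY+ cells of 1 index row, S503, picked after seeing the data, the THY+ share was 71.9% (interval 53.3 to 86.3), which overlapped all 3.
The levels ran in the same order. Sox9 FPKM ranged from 0 to 3183 with a median of 170.7 in 6C3+ cells, and from 0 to 2377 with a median of 45.1 in THY+ cells. In CSP cells the range was 0 to 6589 with a median of 464, and in mSSC cells 0 to 7598 with a median of 1270.3. Every population therefore held cells at 0 and cells above 2000 FPKM, and all 4 ranges overlapped. Among cells with Sox9 only, the medians were 213 in 6C3+, 393 in THY+, 711.3 in CSP and 1327 in mSSC cells, so the THY+ median exceeded that of 6C3+ once the 19 THY+ cells without Sox9 were set aside.

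Sox5 and Sox6 were detected in 53 and 48 cells, at FPKM values well under those of Sox9 in the same populations. FPKM is per transcript length, but the annotation and program behind it are not given. Levels of different genes can therefore be set side by side only roughly. Sox5 was found in 13 of 34 6C3+ cells (38.2%, interval 22.2 to 56.4) and 12 of 43 THY+ cells (27.9%, interval 15.3 to 43.7). It was found in 7 of 11 CSP cells (63.6%, interval 30.8 to 89.1) and 21 of 37 mSSC cells (56.8%, interval 39.5 to 72.9). All 4 intervals overlapped.
Its FPKM reached 90.3 in 6C3+ (median 0.202), 196.8 in THY+ (median 0), 57.9 in CSP (median 3.81) and 195 in mSSC cells (median 5.33), with a lowest value of 0 in each. Sox6 was found in 11 of 34 6C3+ cells (32.4%, interval 17.4 to 50.5) and 8 of 43 THY+ cells (18.6%, interval 8.39 to 33.4). It was found in 7 of 11 CSP cells (63.6%, interval 30.8 to 89.1) and 22 of 37 mSSC cells (59.5%, interval 42.1 to 75.2).
For Sox6 the THY+ interval lay below that of mSSC, while all other pairs overlapped. Its FPKM reached 59.7 in 6C3+ (median 0), 67.3 in THY+ (median 0), 67.7 in CSP (median 3.69) and 181.1 in mSSC cells (median 11.9), again from 0 in each.

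Sox11 had its highest share in mSSC and its lowest in CSP cells, which shared a plate, though their intervals overlapped. It was found in 11 of 34 6C3+ cells (32.4%, interval 17.4 to 50.5), 12 of 43 THY+ cells (27.9%, interval 15.3 to 43.7) and 1 of 11 CSP cells (9.09%, interval 0.23 to 41.3). In mSSC cells it was found in 19 of 37 (51.4%, interval 34.4 to 68.1).
The 19 mSSC cells with it ranged from 2.13 to 1363 FPKM with a median of 335, and the other 18 were below 1, the limit that defines detection. The highest value was 317 in 6C3+ and 735 in THY+ cells, and the single CSP cell with Sox11 had 460.1. Sox4 had the flattest profile, in 11 of 34 6C3+ (32.4%), 13 of 43 THY+ (30.2%), 3 of 11 CSP (27.3%) and 6 of 37 mSSC cells (16.2%), and its intervals overlapped throughout.
Sox4 FPKM had a median of 0 in all 4 populations and reached 119.9 in 6C3+, 97.5 in THY+, 108.8 in CSP and 86.2 in mSSC cells. Sox8 was the rarest, in 2 of 34 6C3+ (5.88%, interval 0.72 to 19.7), 3 of 43 THY+ (6.98%, interval 1.46 to 19.1) and 1 of 11 CSP cells (9.09%). It was found in 10 of 37 mSSC cells (27%, interval 13.8 to 44.1), with a highest value of 398 FPKM there against 9.84 in 6C3+, 39.5 in THY+ and 4.84 in CSP cells. The Sox8 intervals overlapped too.

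**Figure D1:**
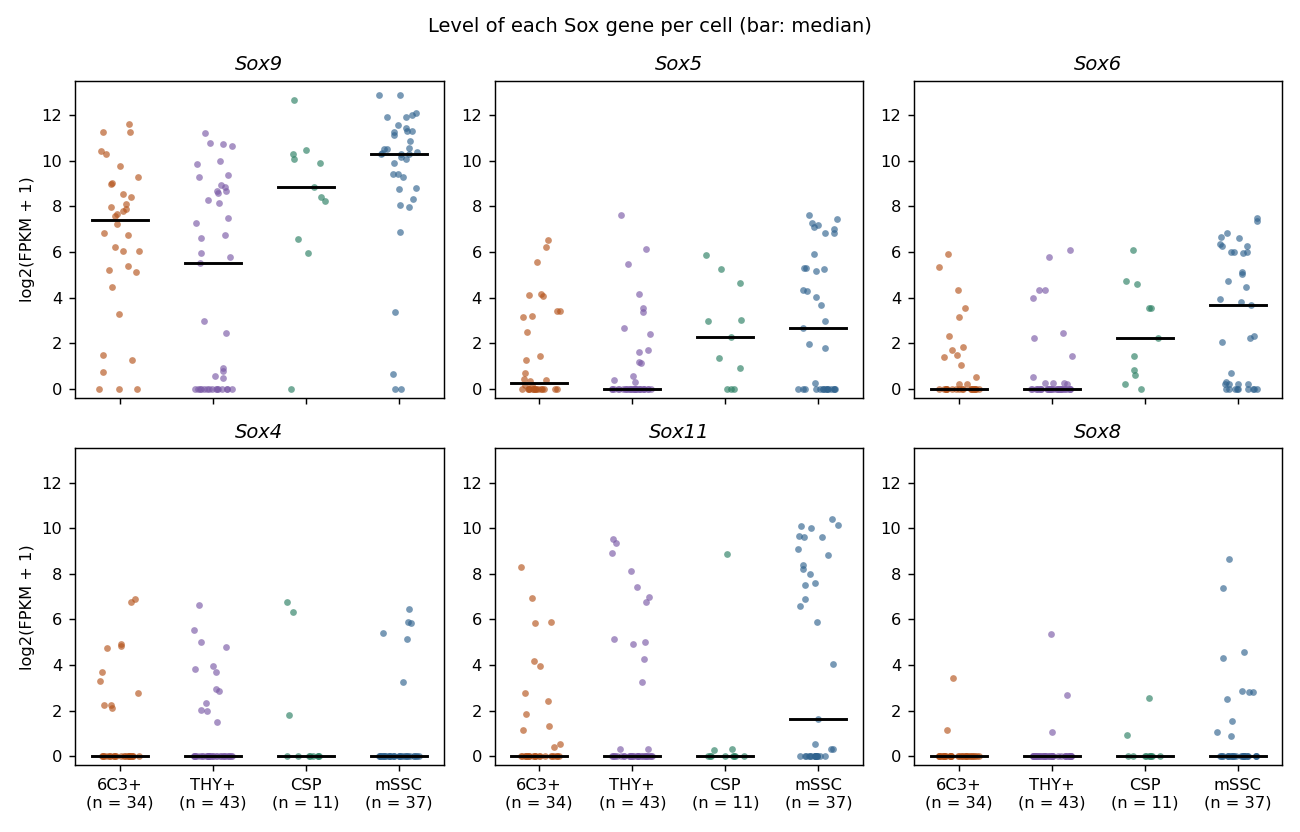
Level of each Sox gene as log2(FPKM + 1) per cell (y axis) in the 4 populations (x axis), for 34 6C3+, 43 THY+, 11 CSP and 37 mSSC cells; each point is 1 cell and the bar is the median. Sox9 points spread from 0 to high values in every population, and Sox11 was detected in 19 mSSC cells and not in 18.

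**Figure D2:**
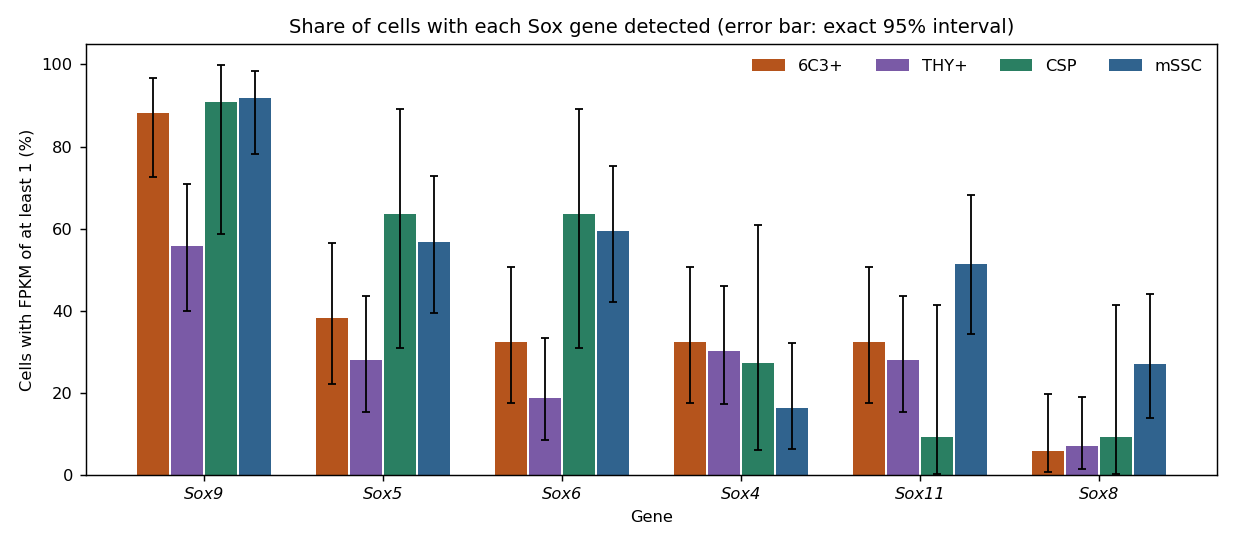
Percent of cells with FPKM of at least 1 (y axis, from 0) for each Sox gene (x axis) and population; error bars are exact 95% Clopper-Pearson intervals over cells. The Sox9 bar of THY+ (55.8%) stands below the other Sox9 bars (88.2% to 91.9%), and the Sox11 and Sox8 bars are highest in mSSC.

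Differences between populations were taken as those of mean log2(FPKM + 1), and a difference of at least 2 log2 units was counted, over the 10051 genes detected in at least 5% of cells. All 6 members passed that filter. With 1 sample per population these are sizes without a replicate check, and comparisons that share a population share its cells.
Against mSSC, 3 of 6 members were lower by that size in 6C3+ cells, where 3.49% of all tested genes were lower and 0.587% higher: Sox9 by -2.85, Sox6 by -2.20 and Sox11 by -2.80. In THY+ cells 3 of 6 were lower against mSSC, where 2.42% of tested genes were lower and 1.51% higher: Sox9 by -4.83, Sox6 by -2.42 and Sox11 by -2.28. Sox5 differed by -1.47 in 6C3+ and by -1.998 in THY+ cells, the second just short of the size. The interval on the detected share lay below that of mSSC for 2 members in THY+ cells, Sox9 and Sox6, against 1.38% of tested genes below and 2.71% above. It was for 0 members in 6C3+ cells, against 0.856% below and 1.53% above.
In CSP cells 1 of 6 was lower against mSSC, where 1.47% of tested genes were lower and 2.82% higher: Sox11, by -3.28, on 1 CSP cell of 11 with the gene. That difference was -0.79 among cells with 2000 to 3000 genes, of which CSP holds 3, and the Sox9 difference there was -3.66, past the size. Over all cells with at least 1000 genes the other 5 members differed between CSP and mSSC by -1.06 for Sox9, -0.59 for Sox5, -0.63 for Sox6, 0.49 for Sox4 and -0.75 for Sox8, and 0 members had shares with intervals apart (0.0995% of tested genes below and 0.766% above).

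Against CSP, 0 of 6 members passed the size in 6C3+ cells (6% of tested genes were lower and 1.45% higher), with Sox9 at -1.79, Sox6 at -1.56 and Sox5 at -0.89. Among cells with 2000 to 3000 genes Sox9 was at 0.19 and Sox5 at 0.10, on 3 CSP cells. Intervals were apart for 0 members (1.27% of tested genes below and 0.577% above). In THY+ cells 1 of 6 was lower against CSP, where 4.79% of tested genes were lower and 2.73% higher: Sox9, by -3.77. Intervals were apart for 0 members there (1.65% below and 0.846% above). Sox11 was at 1.009, and at -2.32 among cells with 2000 to 3000 genes. The Sox9 difference between THY+ and CSP was -1.89 among cells with 2000 to 3000 genes and -1.79 as the log2 of the mean, both under the size.
Between 6C3+ and THY+ cells 0 of 6 passed it, where 0.179% of tested genes were higher and 0.776% lower. Sox9 came nearest, at 1.98, but was at -0.37 over all cells, those with under 1000 genes included. Among cells with at least 1000 genes the interval on its detected share lay above that of THY+, as for 0.239% of tested genes (0.378% below). Sox4 differed by -0.26 to 0.49 over all 6 comparisons, with a sign that turned under some alternatives, and Sox12, the third SoxC gene, by -0.89 to 0.99.
The median difference of the 6 members was -1.83 for 6C3+ minus mSSC, against -0.09 over all tested genes. It was -2.14 against 0.11 for THY+ minus mSSC, and -0.69 against -0.02 for CSP minus mSSC. FPKM totals of the genes differed, with medians of 366748 in 6C3+, 752613 in THY+, 578425 in CSP and 906237 in mSSC cells. Rescaling each cell to 1000000 shifted the difference of 6C3+ minus mSSC by a median of 0.29 per tested gene, and of 1.05 over the 1483 genes detected in at least 50% of cells. In that comparison Sox9 was then at -1.45 and Sox6 at -1.82, under the size, and Sox11 at -2.22. For 6C3+ minus THY+ the median shift was 0.22, and 0.84 over those 1483 genes, and Sox9 was then at 3.05, past the size. No direction given above for Sox9, Sox5, Sox6 or Sox11 against mSSC turned under that rescaling.

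Sox9 was seldom without a SoxD gene in CSP and mSSC cells. Sox5 or Sox6 was detected in 17 of 30 6C3+ cells with Sox9 (56.7%, interval 37.4 to 74.5), 13 of 24 in THY+ (54.2%, interval 32.8 to 74.4), 9 of 10 in CSP (90%, interval 55.5 to 99.7) and 29 of 34 in mSSC (85.3%, interval 68.9 to 95). Among cells without Sox9 the counts were 1 of 4 in 6C3+, 5 of 19 in THY+, 0 of 1 in CSP and 1 of 3 in mSSC. Over all populations that is 68 of 98 cells with Sox9 (69.4%, interval 59.3 to 78.3) and 7 of 27 without (25.9%, interval 11.1 to 46.3).
Taken singly, the detected shares of Sox5, Sox6 and Sox11 had intervals above those of cells without Sox9, as did 2.06% of tested genes, with 1.06% below. Sox5 was in 49 of 98 cells with Sox9 and 4 of 27 without, Sox6 in 44 of 98 and 4 of 27, and Sox11 in 40 of 98 and 3 of 27. These pooled shares mix the 4 populations, most of the cells without Sox9 being THY+ cells (19 of 27), and the median gene number was 2728 with Sox9 and 2798 without.
All 16 cells with Sox8 also had Sox9 (interval 79.4 to 100), against 75.2% of cells without Sox8 (interval 66 to 83, overlapping). Sox6 was in 12 of those 16 (interval 47.6 to 92.7), against 33% of cells without Sox8 (interval 24.3 to 42.7, apart). Of the 16 cells 10 were mSSC cells, and the median gene number was 3307.5 with Sox8 and 2689 without. The part of population and gene number in these shares was not tested. Unlike Sox5, Sox6 and Sox11, Sox4 had the lower share with Sox9, in 24 of 98 cells with it (24.5%) and 9 of 27 without (33.3%), with overlapping intervals.

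All 3 of Sox9, Sox5 and Sox6 were detected together in 5 of 34 6C3+ cells (14.7%, interval 4.95 to 31.1) and 2 of 43 THY+ cells (4.65%, interval 0.568 to 15.8). In CSP cells the count was 5 of 11 (45.5%, interval 16.7 to 76.6) and in mSSC cells 13 of 37 (35.1%, interval 20.2 to 52.5). The THY+ interval lay below those of CSP and mSSC. None of the 3 was detected in 3 6C3+, 14 THY+, 1 CSP and 2 mSSC cells. Sox5 and Sox6 without Sox9 occurred in 1 cell of all, a 6C3+ cell, while Sox9 without either occurred in 30.
Among the 34 mSSC cells with Sox9, Sox5 and Sox6 were each in 21, and 13 held both. Across mSSC cells the levels of Sox5 and Sox6 were all but unrelated (Pearson r of log2(FPKM + 1) 0.05, Spearman's rho 0.13, 37 cells).

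**Figure D3:**
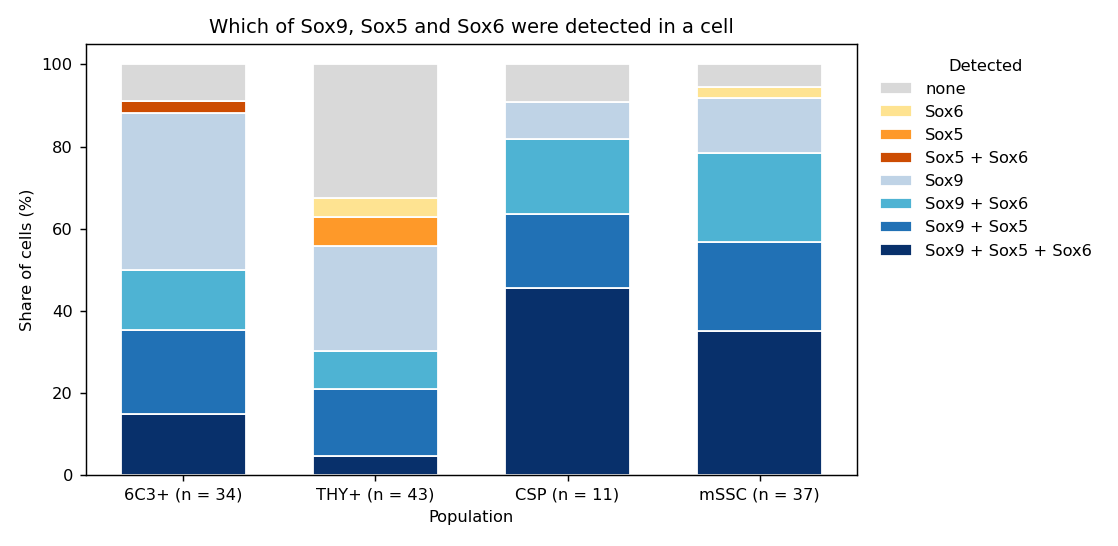
Percent of cells (y axis) with each combination of Sox9, Sox5 and Sox6 detected, stacked to 100 for each population (x axis); combinations with Sox9 are in blue at the bottom, those without it in orange, and cells with none in grey. All 3 genes together make up 14.7% of 6C3+, 4.65% of THY+, 45.5% of CSP and 35.1% of mSSC cells.

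Col2a1 was detected in 27 of 34 6C3+, 30 of 43 THY+, 10 of 11 CSP and 35 of 37 mSSC cells, at medians of 938, 7.66, 22906 and 22488 FPKM in that order. Its median was higher in cells with more of Sox9, Sox5 and Sox6 in 6C3+ and mSSC cells. In 6C3+ cells it was 5.93, 21.1, 2523 and 14702 FPKM at 0, 1, 2 and 3 genes (3, 13, 13 and 5 cells). In mSSC cells it was 0.555, 18633, 21286 and 26524 FPKM (2, 6, 16 and 13 cells).
In THY+ cells the sequence was 1.52, 30.3, 8.98 and 7529 FPKM (14, 16, 11 and 2 cells), so 1 and 2 genes did not follow that order. Nor did they in CSP cells, at 0, 23397, 18090.4 and 25584 FPKM (1, 1, 4 and 5 cells). The 25 cells with all 3 genes held Col2a1 at no less than 2191 FPKM, and at a median of 22906. Of the 20 cells with none, 13 held Col2a1, with a median of 1.35 and a highest value of 9459 FPKM, in a THY+ cell. The median gene number was 2886 at 0 genes and 2877 at 3 genes.

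Per cell, the level of Sox9 and that of Col2a1 had a Pearson r of 0.54 in 6C3+ cells (rho 0.52, 34 cells), 0.31 in THY+ cells (rho 0.31, 43 cells), 0.82 in CSP cells (rho 0.22, 11 cells) and 0.48 in mSSC cells (rho 0.30, 37 cells). These are descriptions over cells whose index names put them on a shared plate, and carry no p-value. The CSP value rested on CSP cell 8, with neither gene: it was 0.0096 among the 10 CSP cells with Sox9. In mSSC cells it was 0.18 among the 34 with Sox9, and in THY+ cells 0.10 among 24, while in 6C3+ cells it was 0.55 among 30.
Among cells with both genes r was 0.39 in 23 6C3+ cells (rho 0.24), 0.23 in 17 THY+ cells (rho 0.32), 0.0096 in 10 CSP cells (rho -0.04) and 0.24 in 33 mSSC cells (rho 0.27), and with both at 10 FPKM or more it was 0.32 in 6C3+ and 0.66 in THY+ cells. The order of the populations by r thus changed with the cells included, and the 6C3+ value was lower without the 7 cells that had Sox9 and no Col2a1. In 6C3+ cells with Sox9 between 1 and 100 FPKM, 5 of 10 had Col2a1 (median 10.6 FPKM), against 13 of 15 between 100 and 1000 FPKM (median 9790) and 5 of 5 above 1000 FPKM (median 4116). In mSSC cells above 1000 FPKM of Sox9, all 23 had Col2a1, between 5518 and 73218 FPKM.
Some cells went against the pattern. The mSSC cell with the highest Col2a1, at 80221 FPKM, was listed at 0 for Sox9, with 14 of 15 chondrocyte genes and Sox6 at 81.1 FPKM. Of 19 THY+ cells without Sox9, 13 had Col2a1, with a median over the 19 of 1.602 FPKM. Of 98 cells with Sox9, 15 had no Col2a1, 7 of them 6C3+ and 7 THY+ cells.
Over all 4 populations r was 0.59, a value that also carries the differences between populations; by it Col2a1 ranked 16 of 5020 genes detected in at least 20% of cells.

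**Figure D4:**
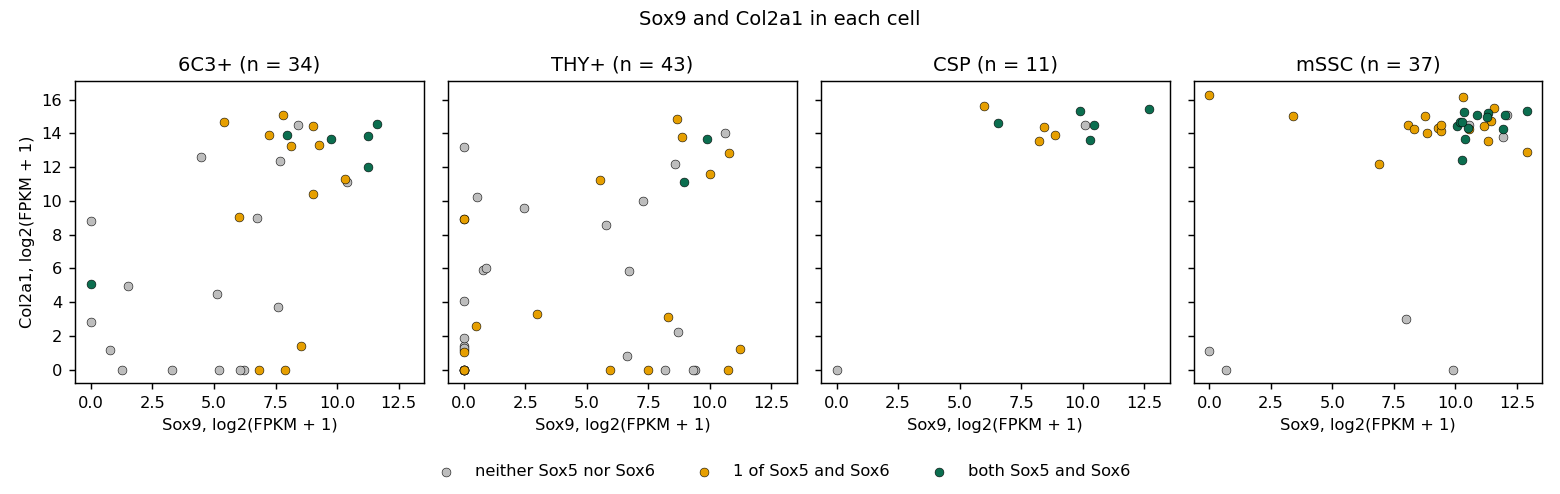
Col2a1 against Sox9, both as log2(FPKM + 1), in each of 34 6C3+, 43 THY+, 11 CSP and 37 mSSC cells; colour gives how many of Sox5 and Sox6 were detected. In CSP and mSSC cells nearly all points form 1 cloud at high Col2a1, with few cells near 0, while 6C3+ and THY+ points spread along the Col2a1 axis.

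Among the members themselves, Sox9 and Sox5 had a positive r in every population: 0.36 in 6C3+, 0.40 in THY+, 0.50 in CSP and 0.41 in mSSC cells. Sox9 and Sox6 had 0.48 in 6C3+, 0.17 in THY+ and 0.61 in CSP cells, but 0.02 in mSSC cells, where Sox6 is most often detected after CSP.
Sox9 and Sox11 had 0.53 in THY+ and 0.49 in mSSC cells, and 0.22 and 0.16 in 6C3+ and CSP cells. In mSSC cells this was 0.48 among the 34 with Sox9, and all 19 mSSC cells with Sox11 had Sox9. Sox11 level also went with the number of genes detected in a cell, at r 0.57 in THY+ and 0.39 in mSSC cells, whose part in the relation was not tested.
In mSSC cells Sox5 was in 15 of 19 cells with Sox11 (78.9%, interval 54.4 to 93.9) and 6 of 18 without (33.3%, interval 13.3 to 59). In THY+ cells 7 of 12 cells with Sox5 had Sox11 (interval 27.7 to 84.8), and 5 of 31 without (interval 5.45 to 33.7). The intervals overlapped in both populations.

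Sox4 and Sox9 had an r of -0.62 in mSSC cells, against 0.39 in 6C3+, -0.09 in THY+ and 0.03 in CSP cells. The mSSC value rested on the 3 cells without Sox9, all of which had Sox4, at 34.5, 41.8 and 57.2 FPKM; of the 34 mSSC cells with Sox9, 3 had Sox4, and r among them was -0.12. One of those 3 cells without Sox9 held 10 of 11 pericyte and smooth muscle genes and 1 of 15 chondrocyte genes, a second held 4 chondrocyte and 7 of 10 fibroblast and periosteal genes, and the third was the cell with the highest Col2a1. In 6C3+ cells Sox4 was found only among cells with Sox9 (11 of 30, and 0 of 4 without), and Sox4 and Sox6 had an r of 0.61 but a rho of 0.43. Sox6 was in 5 of 11 6C3+ cells with Sox4 and 6 of 23 without, with overlapping intervals.

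**Figure D5:**
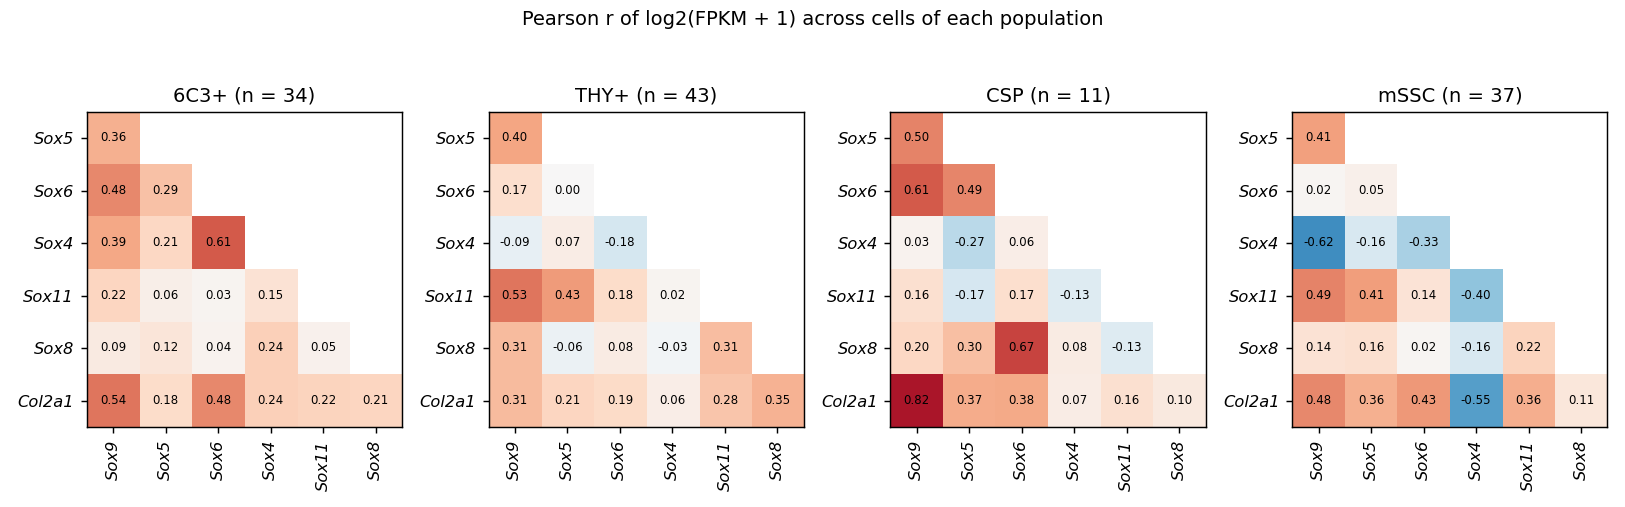
Pearson r of log2(FPKM + 1) over the cells of each population for each pair of the 6 Sox genes and Col2a1; each square is 1 pair, red positive and blue negative, with r printed in it. Sox9 with Sox5 is positive in all 4 panels (0.36 to 0.50), and the Sox4 column and row are blue in mSSC. The CSP value of 0.50 includes the cell without Sox9, and r was 0.37 among the 10 CSP cells with Sox9.

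The SOX9 target list held 20 cartilage matrix and related genes, of which 19 were in the table. It was chosen with earlier results of these data known. All 19 passed the size, lower, in 6C3+ minus mSSC, where 3.49% of tested genes were lower. Their median was -4.95 against -0.09 over all tested genes. The same 19 were lower in THY+ minus mSSC (median -6.51 against 0.11), in 6C3+ minus CSP (-4.84 against -0.07) and in THY+ minus CSP (-7.03 against 0.13). Of all tested genes 2.42%, 6% and 4.79% were lower in that order. In each of these 4 comparisons the median difference of the targets was larger in size than that of Sox9 itself.
Lect1 (also named Cnmd), which encodes the cartilage glycoprotein chondromodulin, which inhibits vessel growth, was lowest against mSSC, at -7.45 in 6C3+ and -9.91 in THY+ cells. The cartilage matrilin Matn3 and the secreted cartilage protein Mia followed in 6C3+ cells at -6.97 and -6.88, and the collagen IX chain Col9a2 and the matrix protein Chad in THY+ cells at -8.96 and -8.49. Nearest to 0 were the matrix protein Comp (-2.48) and Papss2 (-2.71) in 6C3+ cells, and the growth factor receptor Fgfr3 (-2.50) and the collagen chain Col27a1 (-2.74) in THY+ cells.
Between CSP and mSSC 2 of 19 were higher and 0 lower, where 2.82% of tested genes were higher and 1.47% lower. The median was 0.60 against -0.02. The higher genes were Matn1, the first cartilage matrilin, at 3.25, and Comp at 2.36. Lowest were Chad at -1.07 and Lect1 at -0.59. Between 6C3+ and THY+ 6 of 19 were higher and 0 lower, where 0.179% of tested genes were higher and 0.776% lower. The median was 0.92 against -0.21. Scrg1, a secreted protein gene first found in scrapie, was highest at 3.07, with Col2a1 at 2.83, Chad at 2.76 and Col9a2 at 2.63.

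Within populations, the median r with Sox9 of the targets other than Col2a1 was 0.56 in 6C3+ (15 genes detected in at least 20% of cells), 0.43 in THY+ (14 genes), 0.85 in CSP (18 genes) and 0.48 in mSSC cells (18 genes). Over all genes so detected the median was 0.05, 0.08, 0.23 and 0.06 in that order, and the CSP values again include cell 8.
In mSSC cells the highest target values were 0.63 for Hapln1, the link protein that ties aggrecan to hyaluronan, 0.54 for Comp and 0.53 for the collagen XI chain Col11a1. The lowest were 0.10 for Fgfr3, 0.21 for Col27a1 and 0.24 for Papss2. Of the 18 targets other than Col2a1, cells with 0 of Sox9, Sox5 and Sox6 had a median of 3.5 detected and cells with all 3 had 17, over all populations. These pooled values mix the populations: 14 of the 20 cells with 0 were THY+ cells, and 13 of the 25 with all 3 were mSSC cells. In THY+ cells those medians were 3 and 15, and in 6C3+ cells 3 and 15, with 2 and 5 cells at all 3 genes. In mSSC cells the medians at 0, 1, 2 and 3 genes were 3, 16, 16.5 and 17 (2, 6, 16 and 13 cells). In CSP cells they were 9, 18, 18 and 18 (1, 1, 4 and 5 cells), so there the targets were near their full number at 1 gene.

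Partners and regulators of SOX9 were a list of 20 genes, of which 16 were tested. In 6C3+ minus mSSC 0 were higher and 1 lower, where 0.587% of tested genes were higher and 3.49% lower. The median was 0.09 against -0.09 over all tested genes. The lower gene was Foxa3, a forkhead factor of cartilage hypertrophy in mouse, at -2.66. In THY+ minus mSSC 1 was higher, Gli3, the hedgehog pathway factor, at 2.25, and 1 lower, Foxa3 at -2.72. Of all tested genes 1.51% were higher and 2.42% lower there.
Between CSP and mSSC 4 of 16 were higher and 0 lower, where 2.82% of tested genes were higher and 1.47% lower. The median was 0.74 against -0.02. The higher genes were Zbtb20 at 2.84, Runx3 at 2.81, Runx2, the factor of osteoblasts and hypertrophic chondrocytes, at 2.19, and Mef2c, a driver of chondrocyte hypertrophy, at 2.07. All 3 tested genes of hypertrophic cartilage were also higher in CSP, with a median of 5.32. Against CSP, 5 of 16 partners were lower in 6C3+ and 4 of 16 in THY+ cells, led by Foxa3 at -3.96 and -4.02. Of all tested genes 6% and 4.79% were lower in that order. Between 6C3+ and THY+ 0 passed the size, where 0.179% of tested genes were higher and 0.776% lower. Foxc1 was highest at 1.69 and Arid5b lowest at -0.80. In mSSC cells Runx1 (0.28), Nfatc1 (0.21) and Foxa2 (0.20) had the highest r with Sox9 and Trps1 (-0.10), Ep300 (-0.02) and Crebbp (0.01) the lowest.

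Genes whose level was most like that of a member were ranked by Pearson r over all 4 populations among 4759 named genes detected in at least 20% of cells. For Sox9 they were Col9a1 (0.70), Lect1 (0.67), Col9a2 (0.67), Col11a1 (0.66) and Sdc4 (0.66), a syndecan of the cell surface. Of these 5, 4 are on the SOX9 target list, which has 18 genes other than Col2a1 among the 5020 genes, named or not, detected in at least 20% of cells. That list was chosen with earlier results of these data known, so the overlap is no independent support.
For Sox6 they were Scrg1 (0.58), Lect1 (0.55), Col9a1 (0.55), Herpud1 (0.55), of the unfolded protein response, and Col11a2 (0.54). For Sox5 the first was Sox9 itself (0.48), before Matn3 (0.48), S100b (0.47), Hapln1 (0.47) and Thbs1 (0.46).
For Sox11 they were Serpina3n (0.50), Tsku (0.46), Id2 (0.46), Sox9 (0.46) and Ier2 (0.45). Sox8 had Fdft1 (0.42) and Acat2 (0.42), both of sterol synthesis, then Slc16a1 (0.40), Mzt1 (0.38) and the cell cycle inhibitor Cdkn2d (0.37). Sox4 had lower values, from Dixdc1 (0.36) over Itch (0.35), Ipo4 (0.35) and Zc2hc1a (0.33) to Itfg1 (0.33), none of them on the SOX9 target list, and its r with Col2a1 was -0.05.
In mSSC cells alone the genes most like Sox9 were Btg1 (0.69), Insig1 (0.68), Hapln1 (0.63), Sdc4 (0.62) and the immediate early gene Ier2 (0.58); their rank correlations were lower, between 0.40 and 0.58. The values over all 4 populations carry population and plate differences along with those between cells.

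Within the populations, detection of Sox genes was set beside other marks of the cells. In 6C3+ cells with any collagen IX chain, Sox9 was in 20 of 20 and Sox6 in 10 of 20, against 10 of 14 and 1 of 14 without. The intervals overlapped for both genes, at 83.2 to 100 with collagen IX and 41.9 to 91.6 without for Sox9, and at 27.2 to 72.8 and 0.181 to 33.9 for Sox6. The Sox9 median was 310.1 FPKM with collagen IX and 21.2 without. Of 25 6C3+ cells with Prg4, which encodes the joint lubricant lubricin, 11 had Sox6 (interval 24.4 to 65.1), against 0 of 9 without (interval 0 to 33.6), again overlapping. Sox9 was in 21 of 25 with Prg4 and 9 of 9 without.
Of 15 mSSC cells with Wif1, a secreted WNT inhibitor, 0 had Sox8 (interval 0 to 21.8), against 10 of 22 without (45.5%, interval 24.4 to 67.8). Intervals were apart in that direction for 0.0796% of tested genes (0.0995% the other way). The median gene number was 2444 with Wif1 and 2692 without. It was 3020.5 in mSSC cells with Sox8 and 2493 in those without, and the part of gene number in this result was not tested. Sox11 was in 5 of 15 with Wif1 and 14 of 22 without, with overlapping intervals.
All 4 mSSC cells with at least 5 of 17 proliferation genes had Sox8 (interval 39.8 to 100), at 6.15 to 398 FPKM, against 6 of 33 other mSSC cells (18.2%, interval 6.98 to 35.5); intervals were apart upward for 0.806% of tested genes and downward for 0.00995%. Their median gene number was 3197, against 2506 in the others, and the part of that in the result was not tested. As no mSSC cell with Wif1 had Sox8, the 4 cells were all without Wif1. Both Sox8 results therefore rest in part on the same cells. Sox9 was in 9 of 9 CSP cells with Ihh, the hedgehog ligand of prehypertrophic cartilage, at a median of 464 FPKM, and in 1 of 2 without, at 959 FPKM.

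In THY+ cells, Sox9 was in 3 of 13 cells with at least 6 of the 11 pericyte and smooth muscle genes (23.1%, interval 5.04 to 53.8) and in 21 of 30 with fewer (70%, interval 50.6 to 85.3). Sox6 was in 0 of 13 (interval 0 to 24.7) and 8 of 30 (interval 12.3 to 45.9) in that order, and the intervals of both genes overlapped. One index row of the THY+ plate, S503, was picked after seeing the data, so its distance from the other rows in Sox9 is a description and no independent result. Of its 11 cells 1 had Sox9 (9.09%, interval 0.23 to 41.3), against 23 of 32 in the other rows (71.9%, interval 53.3 to 86.3). Intervals were apart in that direction for 0.229% of tested genes (0.199% the other way).
That row held 6 of the 13 cells with pericyte genes, and a median of 1 of 15 chondrocyte genes against 6 in the other rows. Its median gene number was 3005, against 2799.5 in the other rows, and its spike-in share was 22% against 20.4%. The part of the index row in the result was not tested. Without row S503 the Sox9 interval of THY+ cells overlapped those of 6C3+ and mSSC, and the Sox11 difference of THY+ minus mSSC was -1.86, under the size.

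Of 13 other Sox genes looked for, 1 was found in at least 10% of cells of any population. Sox12 was in 3 of 34 6C3+ cells (8.82%), 14 of 43 THY+ cells (32.6%, interval 19.1 to 48.5), 1 of 11 CSP cells and 6 of 37 mSSC cells (16.2%, interval 6.19 to 32), and reached 312 FPKM in a THY+ cell. Sox10, the SoxE gene of neural crest and Schwann cells, and Sox17, an endothelial gene, were detected in 0 cells. So were Sox1, Sox3, Sox14, Sox21 and Sox30, and Sox2, Sox7, Sox13, Sox15 and Sox18 were detected in no more than 1 cell of a population.
The cells with under 1000 genes, left out above, carried Sox9 in 13 of 58 6C3+ (22.4%), 10 of 29 THY+ (34.5%) and 5 of 15 CSP cells (33.3%). With them included, the Sox9 share was 46.7% in 6C3+ and 57.7% in CSP cells, and CSP minus mSSC for Sox9 was -5.27, past the size. No mSSC cell had under 1000 genes.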

How the data were processed

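Single cells were captured on Fluidigm C1 chips, per the labels' protocols, and libraries were made with the SMARTer and Nextera XT kits and ERCC spike-ins. The authors deposited FPKM values for 24388 genes and 92 spike-ins in 227 cells. The mm10 build and SAMtools are named in the submitters' processing notes. Which aligner, FPKM program, annotation and filters on cells were used is not given in the sources used here. Whole reads cannot be recovered from the deposited FPKM, so depth is unknown.

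Columns were matched to cells by title, and populations were taken from the descriptions. From the FPKM, detected shares (exact Clopper-Pearson 95% intervals), differences of mean log2(FPKM + 1) and correlations over cells were computed with scipy 1.17.1, pandas 2.3.3 and numpy 2.4.6 under Python 3.11.15, and plotted with matplotlib 3.10.9. Code was tested on simulated data. Genes in under 5% of the 125 cells were left out of differences. Lists were SOX9 targets, SOX9 partners and regulators, other Sox genes, hypertrophic, proliferation, housekeeping and cell type markers; the target, partner and Sox lists and the members were chosen with earlier results of these data known. Named genes were the members, Col2a1, other Sox genes in at least 10% of a population, the 4 highest and 4 lowest list members per comparison, the 3 highest and 3 lowest by r with Sox9 in mSSC cells, and the 5 genes most like each member; others were named after their values were seen, and some of the named sets are given in part. Snorc was not found by symbol. Start region sequences are from RefSeq (GRCm38.p6) and coordinates from GENCODE.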

Additional observations from a re-analysis of the deposited data

How the results depend on the processing

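No paired analysis was possible because each population counts as 1 sample and cell numbers pair nothing; leaving out a replicate was not possible for the same reason. No difference past the size changed sign. The Sox9 difference of 6C3+ minus mSSC was -1.45 with rescaled FPKM and -1.93 as the log2 of the mean. For CSP minus mSSC it was -5.27 over all cells and -3.66 with 2000 to 3000 genes, and the target median was -3.11 over all cells. The Sox9 difference of 6C3+ minus CSP was -2.26 with at least 2000 genes and 0.19 with 2000 to 3000 genes. For THY+ minus CSP it was -0.78 over all cells, -1.89 with 2000 to 3000 genes and -1.79 as the log2 of the mean. For 6C3+ minus THY+ it was -0.37 over all cells, 2.08 with 2000 to 3000 genes, 2.89 with a pseudocount of 0.1 and 3.05 with rescaled FPKM.

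The Sox9 share over all cells was 46.7% in 6C3+ and 57.7% in CSP cells, and 71.9% in THY+ cells without index row S503. At a detection limit of 10 FPKM, Sox5 or Sox6 was in 29.6% of 6C3+, 31.8% of THY+ and 50% of CSP cells with Sox9, and in CSP cells it was in 100% above 0 or with 2000 to 3000 genes. The r of Sox9 and Col2a1 in cells with both at 10 FPKM or more was 0.32 in 6C3+, 0.66 in THY+, 0.0096 in CSP and 0.27 in mSSC cells. In THY+ cells it was 0.16 with 2000 to 3000 genes and 0.10 in cells with Sox9. In CSP cells rho was 0.22, and r was 0.0096 in cells with Sox9 or with both genes. In mSSC cells rho was 0.30, and r was 0.24 in cells with both genes and 0.18 in cells with Sox9. Leaving out the filter on low values kept the number of genes past the size within 1.5 times in all 6 comparisons. Among the other members, 16 differences came past the size and 8 no longer passed it; the Sox11 difference of THY+ minus CSP, 1.009, was -2.32 with 2000 to 3000 genes, where CSP holds 3 cells. The index row and the cells with Sox9 were chosen after seeing the data; all other alternatives were planned. The cause of these changes was not tested.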
